A study of Homo sapiens with 4 samples.

Results

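The antioxidant response run by the transcription factor NRF2 was examined in Huh7, a line of human hepatocellular carcinoma cells. The members were the 9 rows of the expression table whose symbol was NFE2L2, KEAP1, SQSTM1, NQO1, HMOX1, GCLC, GCLM, TXNRD1 or SRXN1, out of 18806 rows in all. They were listed by name for their part in this pathway, with earlier results of these data known. All 4 libraries came from a single Huh7 clone that carried Cas9 and was infected with a lentiviral guide RNA and selected with hygromycin B. Of these, 2 libraries carried the non-targeting guide (sgNS) and 2 were targeted at METTL16, an RNA m6A methyltransferase (METTL16 KO). The labels give the first genotype as WT and the second as METTL16 knockdown, while the design of the series speaks of KO derivatives. The study's methods state 2 biological replicates per sequenced group, and neither source says whether these came from separate infections or whether the METTL16 pair carried the same guide, so the p-values measure the spread between these samples only. For the library type the labels name both Ribozero RNA and a stranded mRNA kit.

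NRF2, the product of NFE2L2, is a basic leucine zipper protein that is made continuously and degraded rapidly in resting cells. KEAP1 binds it and presents it to a CUL3 ubiquitin ligase, and electrophiles or oxidants that modify cysteines of KEAP1 stop this degradation. SQSTM1 (p62) is an autophagy receptor that also binds KEAP1. Stabilized NRF2 pairs with a small MAF protein on antioxidant response elements and raises enzymes that detoxify quinones, degrade heme, make glutathione and reduce oxidized thiols. BACH proteins bind the same kind of element and repress. The pathway protects hepatocytes against xenobiotics, and it is activated by mutation in a share of liver cancers. Control of NRF2 lies largely in protein stability, which RNA levels do not show.

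The letters TGACNNNGC, the core pattern of an antioxidant response element, were searched on both strands around the transcript starts given by RefSeq on GRCh38.p14. The search covered the 8 members with a promoter entry (HMOX1 had none). From 1000 bases before to 50 after a start, 6 of the 8 genes held a match, in 8 of their 13 windows, where 33.7% of all 35116 promoter windows did. Within 250 bases before to 50 after, 3 genes held one, in 4 of 13 windows, against 13.3% of all windows. The match nearest to a start is printed for each of the 6 genes with 10 bases on either side, 5′ to 3′ on the strand of the motif, and the capitals mark the motif.
NQO1 (chr16:69726997-69727025, minus strand, 455 bases before the start): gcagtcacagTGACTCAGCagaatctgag
TXNRD1 (chr12:104215761-104215789, minus strand, 8 bases before a start): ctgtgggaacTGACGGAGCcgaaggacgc
GCLM (chr1:93909446-93909474, plus strand, 34 bases before the start): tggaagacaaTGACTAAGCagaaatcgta
KEAP1 (chr19:10502784-10502812, plus strand, 31 bases before the second start listed): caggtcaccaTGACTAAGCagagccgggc
SQSTM1 (chr5:179820543-179820571, minus strand, 352 bases before the third start listed): ggcctggccaTGACTCAGCaatatcctca
GCLC (chr6:53545953-53545981, plus strand, 870 bases before the start): aaatatgtgtTGACAGAGCaatgacctgt
NQO1 and SQSTM1 carried the same 9 letters, as did GCLM and KEAP1. Further matches of TXNRD1, KEAP1 and SQSTM1, farther from a start, are not printed. A match is a description of letters and not a binding site shown in these cells, and NFE2L2 and SRXN1 had none in these windows.

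METTL16 was listed at 26.3 and 25.1 TPM in the sgNS libraries against 17.6 and 18.8 TPM in METTL16 KO, so the targeted transcript was lower in both libraries of the second group but present (log2 fold change of -0.50, adjusted p of 2.4e-05 from limma). Values are TPM, a level corrected for transcript length that sums to 1000000 in each library. Read counts are lost in TPM, which leaves the depth unknown, and counting error cannot be estimated. The 100 most abundant genes took 32.6% and 32.8% of the total in sgNS and 28.6% and 28.7% in METTL16 KO, and the median log2 fold change of the 11971 genes tested was 0.16. Median-ratio scaling brought that median to -0.0016, and each direction below is given with it and with quantile normalization in view. The 6 hepatocyte and hepatoma markers were at 1 TPM or more in every library. Their sum ran from 16124 to 16170 TPM in sgNS and from 27912 to 28269 TPM in METTL16 KO, and its part in the changes below was not tested. Most of that rise was in AFP, at 1737 and 1793 TPM in sgNS and 10387 and 10197 TPM in METTL16 KO, whereas TF was lower, at 2105 and 2039 TPM against 1559 and 1523 TPM. The 11 markers of leukocytes, endothelium and stellate cells or fibroblasts each stayed at or under 8.86 TPM, the highest being CD68, which was at 3.40 and 2.72 TPM in sgNS, while PTPRC and CD3E of leukocytes and CDH5 and VWF of endothelium were under 0.5 TPM in every library. The summed leukocyte markers ran from 3.93 to 4.94 TPM in sgNS and from 10.5 to 11.3 TPM in METTL16 KO, where CD68 alone was at 8.86 and 8.57 TPM. The endothelial sum was lower in METTL16 KO, at 2.73 and 3.13 TPM against 4.76 and 5.15 TPM in sgNS, and the part of either in the changes below was not tested.

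All 9 members were above the minimum mean of 1 TPM and were tested among the 11971 genes by limma on log2(TPM + 0.1), with Benjamini-Hochberg adjustment over all of them. At an adjusted p under 0.05, 7 members were higher in METTL16 KO and 2 were lower, where 50.1% of all genes tested were higher and 25.6% were lower. With a change of at least 2-fold as well, 1 member was higher (HMOX1) and 1 was lower (NQO1), against 7.70% and 3.77% of all genes. The groups did not overlap in any of the 9, as in 87.4% of all genes. After median-ratio scaling 5 members were higher and 2 lower, with 36.4% and 36.5% of all genes, and after quantile normalization the counts were again 5 and 2, with 36.9% and 35.5%. The members that lost their call were KEAP1 and SRXN1 in both cases. For 1 gene alone, the smallest p of an exact two-sided permutation test with these 4 libraries is 0.33, so the adjusted p-values depend on the spread that limma shares across genes.

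**Figure D1:**
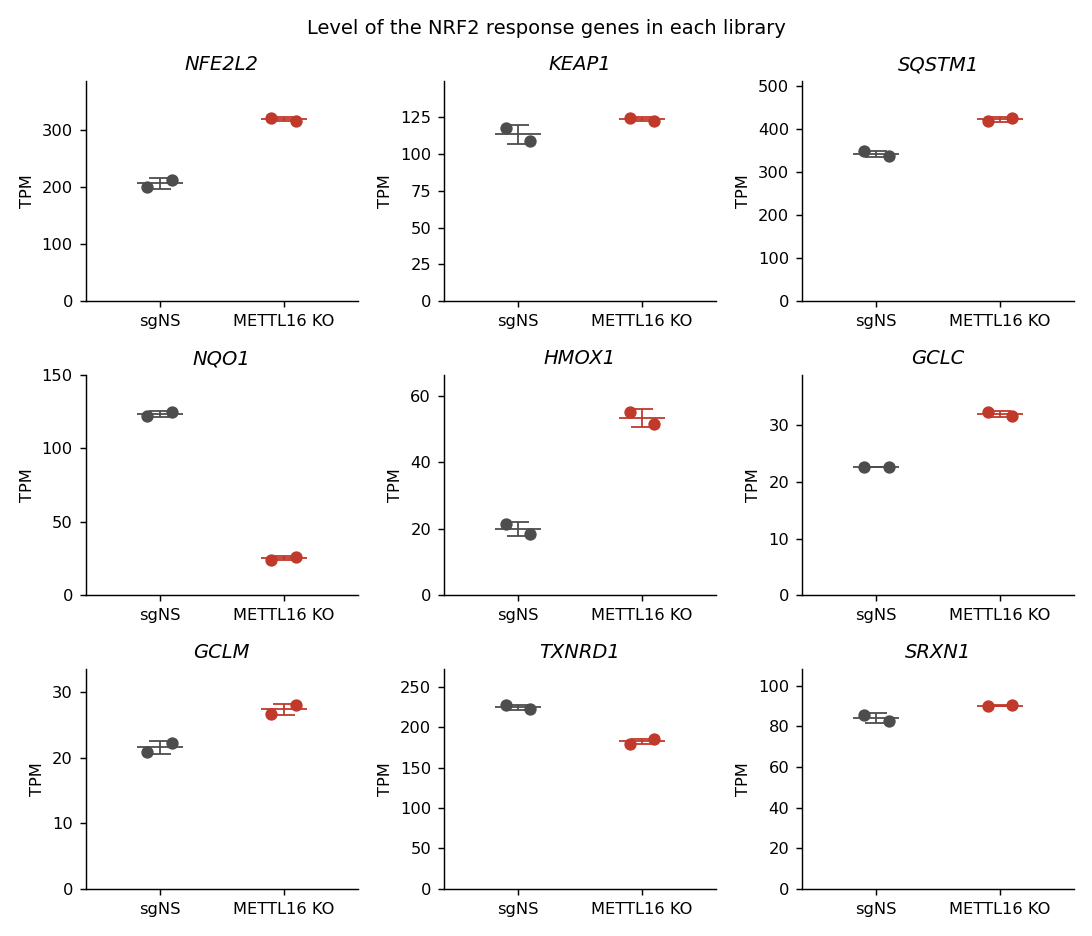
Level of each of the 9 genes in TPM (vertical axes, from 0) in the 2 sgNS libraries (gray) and the 2 METTL16 KO libraries (red). Each point is a library, and the bar with whiskers is the mean ± SD (n = 2). NQO1 drops from 122 and 125 TPM to 24.0 and 26.1 TPM, while HMOX1 and NFE2L2 are higher in both METTL16 KO libraries.

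Among the regulators, the transcript of NRF2 itself rose. NFE2L2 (ENSG00000116044, chromosome 2 from 177218667 to 177392756, minus strand) was at 200.3 and 213 TPM in the sgNS libraries against 322 and 317 TPM in METTL16 KO. Both METTL16 KO libraries lay above both sgNS libraries, by far more than the replicates differed. The mean was 207 ± 9.29 against 320 ± 3.83 TPM (SD, n = 2 per group), 1.54-fold higher, and the log2 fold change was 0.63 with a standard error of 0.038 (limma, adjusted p of 8.5e-08). The rise was 0.46 after median-ratio scaling and 0.57 after quantile normalization. Exons of HNRNPA3 and AGPS on the opposite strand, and of a long noncoding RNA on the same strand, overlap the annotated gene. NQO1 overlaps an antisense RNA. GCLC overlaps antisense RNAs and also a long noncoding RNA on its own strand, with overlapping exons. Sharing of reads was not tested for any of these genes.

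KEAP1, the sensor that holds NRF2 down, differed little from its control level. It lies on chromosome 19 from 10486125 to 10503558 (ENSG00000079999, minus strand), and was at 117.7 and 108.5 TPM in the sgNS libraries against 124 and 122 TPM in METTL16 KO. The 2 METTL16 KO libraries lay only just above the higher sgNS library. The log2 fold change was 0.13 (95% interval 0.027 to 0.23), below the median of all genes, with an adjusted p of 0.024 from limma. It turned to -0.039 with median-ratio scaling, where the adjusted p from limma was 0.44. With quantile normalization it was 0.029, with an adjusted p of 0.58 from limma. The call was lost without sgNS replicate 2, where the log2 fold change was 0.068, and without either METTL16 KO library, where it was 0.11 and 0.14.

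Set against each other within a library, which no scaling factor alters, NFE2L2 was 1.70 and 1.97 times as abundant as KEAP1 in sgNS and 2.59 times in both METTL16 KO libraries. The log2 ratio was higher by 0.50 in METTL16 KO, with an exact two-sided permutation p of 0.33, the smallest that 2 libraries against 2 allow.

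SQSTM1 was the most abundant of the 9 in both groups. This gene (ENSG00000161011, chromosome 5 from 179806398 to 179838078, plus strand) was at 348 and 338 TPM in the sgNS libraries against 418 and 426 TPM in METTL16 KO. The groups were separate, with means of 343 ± 6.97 and 422 ± 5.71 TPM (SD, n = 2 per group). It rose by 0.30 on the log2 scale with a standard error of 0.031 (limma, adjusted p of 6.6e-06), and by 0.13 after median-ratio scaling, still past the threshold. A processed pseudogene, SQSTM1P1 on chromosome 13, and the exons of MGAT4B and MRNIP on the opposite strand could share reads with it, which was not tested.

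The 2 target genes with the largest changes moved in opposite directions. NQO1 encodes a quinone reductase that avoids reactive semiquinones, and it is a standard readout of NRF2 activity. The gene (ENSG00000181019, chromosome 16 from 69706996 to 69726668, minus strand) was at 122 and 125 TPM in the sgNS libraries against 24.0 and 26.1 TPM in METTL16 KO. Both METTL16 KO libraries were far below both controls, and NQO1 went from the 4th most abundant of the 9 members to the least abundant. Its mean was 124 ± 2.16 against 25.0 ± 1.46 TPM (SD, n = 2 per group), 4.93-fold lower, with a log2 fold change of -2.30 (95% interval -2.41 to -2.19, adjusted p of 5.1e-11 from limma). Only 0.184% of the genes tested had a lower log2 fold change. After median-ratio scaling it was -2.46, and after quantile normalization it was -2.43.

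HMOX1 encodes the inducible heme oxygenase, which opens the heme ring and releases iron, carbon monoxide and biliverdin, and it is repressed by BACH proteins. It lies on chromosome 22 from 35380361 to 35394214 (ENSG00000100292, plus strand). The gene was at 21.4 and 18.5 TPM in the sgNS libraries against 55.3 and 51.5 TPM in METTL16 KO. Every METTL16 KO value was more than the higher control value, and the gap was wider than the spread in either group. The mean went from 19.9 ± 2.04 to 53.4 ± 2.69 TPM (SD, n = 2 per group), 2.68-fold higher, with a log2 fold change of 1.42 (95% interval 1.26 to 1.58, adjusted p of 2.2e-08 from limma). Of the genes tested, 96.4% had a lower log2 fold change. The rise was 1.26 after median-ratio scaling and 1.28 after quantile normalization.

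In sgNS there was 0.175 and 0.148 times as much HMOX1 as NQO1 per library, and in METTL16 KO 2.30 and 1.98 times as much. The order of the pair was thus inverted in both METTL16 KO libraries. This ratio was chosen after the values were seen. By contrast, HMOX2, the constitutive heme oxygenase, was at 16.9 and 20.0 TPM in the sgNS libraries against 21.6 and 21.1 TPM in METTL16 KO. HMOX2 was called higher (log2 fold change of 0.21) and lost this call under either scaling. The ratio of HMOX1 to HMOX2 went from 1.26 and 0.923 to 2.56 and 2.44, a difference of 1.21 on the log2 scale (exact two-sided permutation p of 0.33, the smallest possible).

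**Figure D2:**
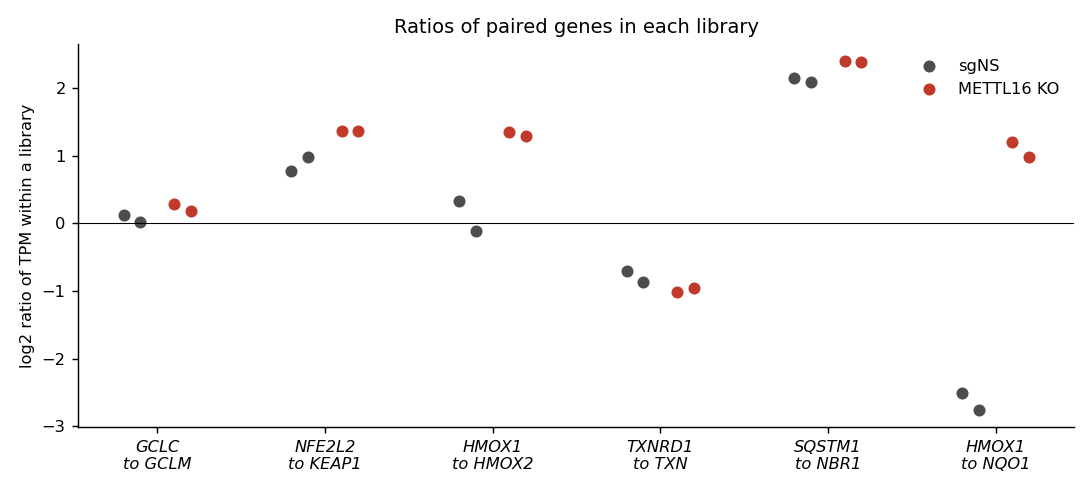
Log2 ratio of the TPM values of a pair of genes within each library (vertical axis), for 6 pairs, with 1 point per library (sgNS gray, METTL16 KO red). The ratio of HMOX1 to NQO1 lies below 0 in both sgNS libraries and above 0 in both METTL16 KO libraries.

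Both subunits of glutamate-cysteine ligase, the rate-limiting enzyme of glutathione synthesis, rose to a modest extent. GCLC, the catalytic subunit (ENSG00000001084, chromosome 6 from 53497341 to 53616970, minus strand), was at 22.7 TPM in each sgNS library against 32.5 and 31.7 TPM in METTL16 KO. GCLM, the modifier subunit that makes the enzyme more active (ENSG00000023909, chromosome 1 from 93885199 to 93909456, minus strand), was at 20.9 and 22.3 TPM in the sgNS libraries against 26.7 and 28.0 TPM in METTL16 KO. Neither gene had overlapping groups. The log2 fold change was 0.50 for GCLC with a standard error of 0.054 (limma, adjusted p of 8.3e-06) and 0.34 for GCLM with a standard error of 0.060 (adjusted p of 3.6e-04). With median-ratio scaling they were 0.33 and 0.17, and with quantile normalization 0.32 and 0.16, and both genes stayed past the threshold. The ratio of GCLC to GCLM was 1.09 and 1.02 in sgNS and 1.21 and 1.13 in METTL16 KO. The log2 ratio differed by 0.16 between the groups, with an exact two-sided permutation p of 0.33.

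Of the thiol-reducing members, TXNRD1 fell and SRXN1 differed little. TXNRD1, the cytosolic selenoenzyme that reduces thioredoxin with NADPH (ENSG00000198431, chromosome 12 from 104215779 to 104350307, plus strand), was at 227 and 222 TPM in the sgNS libraries against 179.9 and 185 TPM in METTL16 KO. Both METTL16 KO libraries were below both controls. The log2 fold change was -0.30 with a standard error of 0.035 (limma, adjusted p of 1.3e-05), and it was -0.47 after median-ratio scaling and -0.35 after quantile normalization. Its substrate TXN was at 371 and 406 TPM in the sgNS libraries against 361 and 358 TPM in METTL16 KO. The log2 ratio of TXNRD1 to TXN was lower by a mean difference of -0.19, with an exact two-sided permutation p of 0.33.

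SRXN1, or sulfiredoxin, restores overoxidized peroxiredoxins (ENSG00000271303, chromosome 20 from 646615 to 653200, minus strand). It was at 85.7 and 82.4 TPM in the sgNS libraries against 90.1 and 90.3 TPM in METTL16 KO, a gap not much wider than the spread of the controls. The log2 fold change was 0.10 (95% interval 0.010 to 0.19, adjusted p of 0.043 from limma), and it turned to -0.064 with median-ratio scaling and to -0.047 with quantile normalization. Adjusted p-values from limma over its 12 alternatives ran from 0.017 to 0.30. Its call was lost without sgNS replicate 2 (log2 fold change of 0.073) and without either METTL16 KO library (0.10 in both cases). An annotated coding gene on the same strand shares exon sequence with it.

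**Figure D3:**
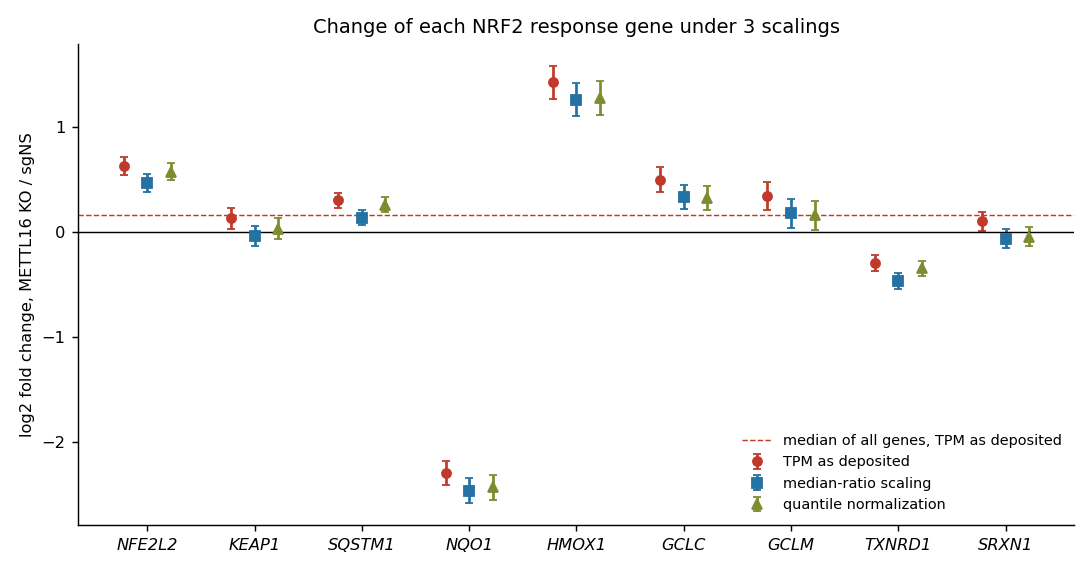
Log2 fold change of METTL16 KO over sgNS (vertical axis) for each of the 9 genes, from TPM as deposited (circles), after median-ratio scaling (squares) and after quantile normalization (triangles), with 95% intervals from limma. The dashed line is the median of all genes at 0.16. NQO1 and TXNRD1 lie below 0 under each scaling, NFE2L2, SQSTM1, HMOX1, GCLC and GCLM lie above it, and KEAP1 and SRXN1 stay near it.

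By level, the order in sgNS from the highest mean was SQSTM1, TXNRD1, NFE2L2, NQO1, KEAP1, SRXN1, GCLC, GCLM and HMOX1. Of these neighbors, only the values of GCLM and HMOX1 overlapped. In METTL16 KO the order was SQSTM1, NFE2L2, TXNRD1, KEAP1, SRXN1, HMOX1, GCLC, GCLM and NQO1, with no overlap between neighbors. The genes with the most similar profile over the 4 libraries were found as those with the smallest Euclidean distance of log2(TPM + 0.1) after centering. They were FAM214A and FOXP1 for NFE2L2 (distances of 0.0077 and 0.017), FDPS, MMP23B and COL11A1 for NQO1 (0.081 to 0.16), and ETS2, BORCS8-MEF2B and ALPK2 for HMOX1 (0.049 to 0.059). A profile here holds only 4 values, so closeness says little beyond a similar fold change.

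The wider pathway was read through 7 lists holding 118 genes, of which 115 had a row in the table and 112 were tested. BACH1, GSTT1 and UROS were not analysed here. In all, 48 of the 112 genes were higher and 42 were lower at an adjusted p under 0.05, a median log2 fold change of -0.013 against 0.16 for all genes tested. Of all genes called, 66.2% were higher, and 49.9% after median-ratio scaling, so the counts of small changes depend on scaling. For the lists together it was 53.3%, and 37.1% after median-ratio scaling (36 higher and 61 lower).

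Of the leucine zipper factors that pair with NRF2 or compete for its sites, 5 of 7 tested were higher and 0 lower, with a median log2 fold change of 0.25, where 50.1% of all genes tested were higher and 25.6% lower. With median-ratio scaling 3 were higher and 2 lower, where 36.4% and 36.5% of all genes were. The counts of the other lists stand against the same shares. BACH2, a repressor of antioxidant response elements, rose from 4.69 and 4.41 TPM to 13.1 and 13.4 TPM, a log2 fold change of 1.52 (adjusted p of 5.4e-08 from limma). MAFK, a small MAF partner of both NRF2 and BACH proteins, rose from 13.8 and 12.7 TPM to 28.5 and 28.1 TPM, a log2 fold change of 1.09 (adjusted p of 8.3e-08). Both kept their rise under either scaling. NFE2L1, a relative of NRF2 that controls proteasome genes, had a log2 fold change of 0.28 and kept its call under either scaling, while MAFG (0.25) did not.

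Among the 10 genes of NRF2 turnover, 5 were higher and 2 lower, with a median of 0.18, near that of all genes. The count of 5 higher genes was the same under both scalings, while 5 and 4 were then lower. The largest changes were in SYVN1 (log2 fold change of 0.72), an ER ubiquitin ligase that can degrade NRF2, in the kinase GSK3A (0.48), in DPP3 (0.46), which competes for KEAP1, and in BTRC (0.44), the adaptor of a second ligase for NRF2. All 4 stayed higher under both scalings. The 2 lower genes, named after their values were seen, were GSK3B (-0.25), the kinase related to GSK3A, and RBX1 (-0.17). GSK3B and RBX1 stayed lower under both scalings. CUL3, the scaffold of the KEAP1 ligase, named after its values were seen, was at 33.9 and 34.1 TPM in the sgNS libraries against 34.4 and 32.8 TPM in METTL16 KO. Its groups overlapped in TPM, and it was called lower after median-ratio scaling (log2 fold change of -0.18) and after quantile normalization (also -0.18).

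The other NRF2 target enzymes and transporters leaned down. Of 25 tested, 15 were lower and 8 higher, with a median of -0.22. Under either scaling 16 were lower and 8 higher. AKR1B10 and CBR3, also on this list, were under the minimum mean. The genes with the largest changes were nevertheless higher. EPHX1, the microsomal epoxide hydrolase, went from 51.9 and 43.96 TPM to 151.8 and 154 TPM (log2 fold change of 1.68, adjusted p of 3.2e-09 from limma). AKR1C3, a ketosteroid reductase of a family of similar genes that may share reads, had a log2 fold change of 1.34. It was low, at 1.77 and 2.25 TPM in sgNS against 5.49 and 4.96 TPM. The heme transporter SLC48A1 had 1.29 and the conjugate exporter ABCC3 had 1.20, and AKR1C3, SLC48A1 and ABCC3 passed the threshold under each scaling. Of its relatives, named after their values were seen, AKR1C2 was higher (0.59). The far more abundant AKR1C1 was lower, at 518 and 543 TPM in sgNS against 455 and 444 TPM (-0.24). The largest falls, named after the values were seen, were in PIR (-0.97), TALDO1 (-0.72), TKT (-0.70) and ME1 (-0.70), and these were lower under each scaling too.

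Genes that supply or use glutathione were split, with 12 of 31 higher and 11 lower and a median of -0.010. After median-ratio scaling 9 were higher and 17 lower. GPX2, a glutathione peroxidase known as an NRF2 target, rose from 5.17 and 5.65 TPM to 16.6 and 17.2 TPM, a log2 fold change of 1.62 (adjusted p of 2.3e-08 from limma). GPX8, a peroxidase of the endoplasmic reticulum, fell by 1.45 on the log2 scale, and OPLAH, which recycles oxoproline to glutamate, fell by 1.26. GSTO2, an omega-class transferase, had a log2 fold change of 1.12 at about 1 to 3 TPM. All 4 kept their direction and call under both scalings.

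In the list of thioredoxin, peroxiredoxin and superoxide enzymes, 10 of 20 were higher and 8 lower, with a median of 0.053. With median-ratio scaling 8 were higher and 10 lower. SOD2, the mitochondrial superoxide dismutase and also a well-known NF-kB target, rose from 54.1 and 49.6 TPM to 150.4 and 150.1 TPM, a log2 fold change of 1.54 (adjusted p of 5.6e-10 from limma). SOD3, the secreted form, was at 0.38 and 0.41 TPM in the sgNS libraries against 2.89 and 2.29 TPM in METTL16 KO. MSRA, which repairs oxidized methionine, had a log2 fold change of 1.08, and TXNIP, the inhibitor of thioredoxin, of 1.01. These 4 genes were higher under each scaling. More abundant genes, named after their values were seen, were lower. SOD1 was at 463 and 468 TPM in the sgNS libraries against 352 and 348 TPM in METTL16 KO (log2 fold change of -0.41). PRDX1 (-0.15), PRDX3 (-0.43), PRDX4 (-0.36), PRDX5 (-0.29) and PRDX6 (-0.23) were lower, while PRDX2 was higher (0.24). PRDX1 lost its call with quantile normalization, and the others kept theirs under each scaling.

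The list of heme and bilirubin enzymes, on which HMOX1 was not placed, held 5 higher and 3 lower genes of 10 tested, with a median of 0.071. None of the 5 higher calls remained after either scaling, where 0 were higher and 5 lower. PPOX, which oxidizes protoporphyrinogen in heme synthesis, fell from 16.21 and 17.5 TPM to 4.14 and 4.41 TPM, a log2 fold change of -1.95 (adjusted p of 7.8e-09 from limma). BLVRA, a reductase of the biliverdin that heme oxygenase forms, was at 12.5 and 10.8 TPM against 6.87 and 6.04 TPM and fell by 0.84 on the log2 scale. FECH, the last enzyme of heme synthesis, fell by 0.29. ALAD had a log2 fold change of 0.26 and did not pass after scaling.

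Among the autophagy receptors and LC3-family proteins that work beside SQSTM1, 3 of 9 were higher and 3 lower, with a median of 0.033, and MAP1LC3A was under the minimum mean. After median-ratio scaling 3 were higher and 6 lower. GABARAPL1 fell by 0.89 on the log2 scale, while TAX1BP1 had a log2 fold change of 0.45, MAP1LC3B of 0.41 and TOLLIP of 0.36, all called under each scaling. NBR1, the receptor most like SQSTM1 in structure, was at 77.9 and 79.3 TPM in the sgNS libraries against 79.4 and 81.5 TPM in METTL16 KO, with an adjusted p of 0.48 from limma. It was called lower after median-ratio scaling (log2 fold change of -0.13) and after quantile normalization (-0.10). The ratio of SQSTM1 to NBR1 went from 4.46 and 4.26 to 5.26 and 5.22, a log2 difference of 0.27 with an exact two-sided permutation p of 0.33.

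**Figure D4:**
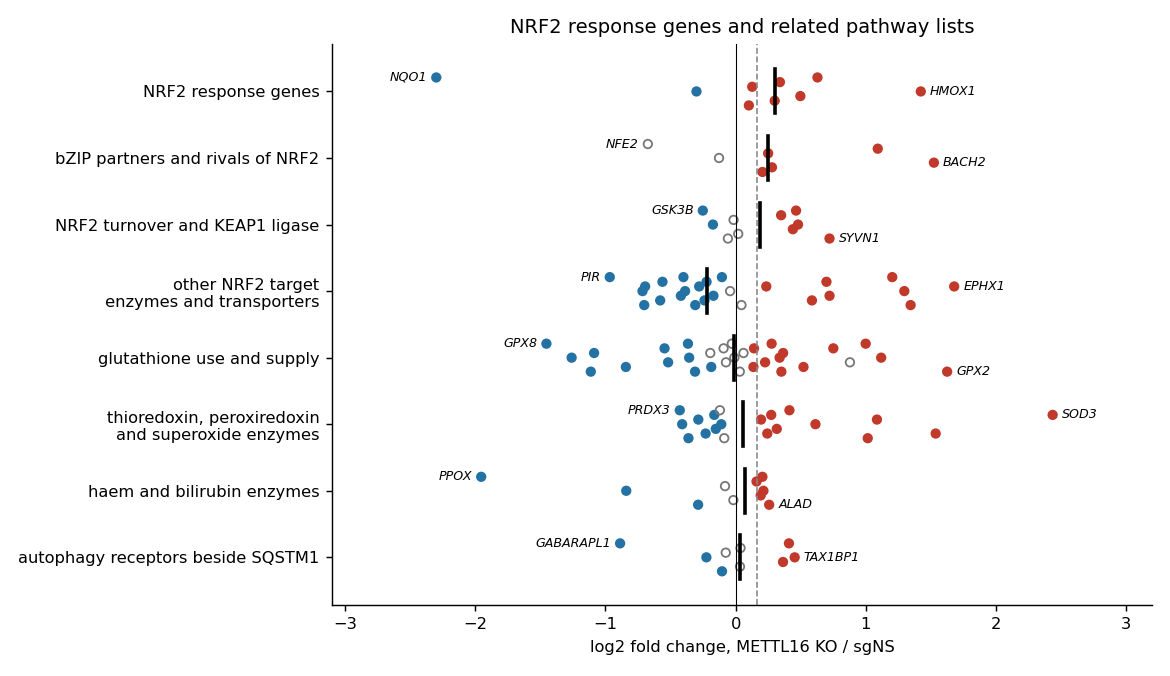
Log2 fold change of METTL16 KO over sgNS (horizontal axis) for the 9 NRF2 response genes and for the genes of 7 related lists, with 1 point per gene. Red and blue points passed an adjusted p of 0.05 in limma, open points did not, black bars are list medians and the dashed line is the median of all genes at 0.16. NQO1 lies farther to the left than any other point, and the other NRF2 targets have the lowest list median, at -0.22.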

How the data were processed

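RNA-seq of 4 Huh7 libraries was used. According to the methods, the authors used Cutadapt for trimming of paired-end reads, STAR for alignment against GRCh38 and RSEM for gene values (versions and annotation are not given in the sources used here). The authors deposited TPM values per gene symbol, rounded to 2 decimals. RPKM is the unit named in the methods, but the values of every library add up to 1000000. A strand setting for counting is not given in the sources used here.

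The deposited TPM values were transformed to log2(TPM + 0.1). Genes whose mean reached 1 TPM (11971) were compared with limma 3.58.1 in R 4.3.3 (mean-variance trend, no block, two-sided), with Benjamini-Hochberg adjustment over all genes. Fold changes on this scale understate those of low genes. On simulated data for this comparison over 11971 genes, the fit recovered 193 of 200 genes changed by 1.5 (log2) at both thresholds. This planted change was larger than that of every member but NQO1, so recovery of smaller changes was not tested. Ratios of TPM within a library were compared by exact permutation. Of the pairs planned, NFE2L2 to BACH1 was not run.

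The members and lists were chosen with earlier results of these data known. Named were all members, the 4 genes of each list with the largest called change without overlap, both genes of each ratio, and the 3 nearest profiles of NFE2L2, NQO1 and HMOX1, of which 1 is not reported here. Genes named outside this rule, other than cell type markers, are said to be chosen after their values were seen. Positions are from GENCODE release 44 on GRCh38, and promoter sequences are from RefSeq (GRCh38.p14), extended from the genome. Alternatives were pseudocounts of 1 and 0.01, other filters, median-ratio scaling over the genes tested, quantile normalization, the replicate block, limma without trend and each library left out. Figures were drawn with matplotlib 3.10.9 in Python 3.11.15.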

Additional observations from a re-analysis of the deposited data

How the results depend on the processing

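Of the 9 genes, NFE2L2, SQSTM1, NQO1, HMOX1, GCLC, GCLM and TXNRD1 kept their direction and their call under all 12 alternatives, with log2 fold changes of -2.46 to -2.24 for NQO1 and 1.26 to 1.53 for HMOX1. KEAP1 turned to -0.039 with median-ratio scaling but was 0.029 with quantile normalization, and it was called in neither. SRXN1 turned to -0.064 and -0.047 with these settings. Both settings removed the common shift, with a median of all genes of -0.0016 and 0.0097. KEAP1 also lost its call with every gene above 0 and without trend (adjusted p of 0.073 and 0.11 from limma). SRXN1 lost its call without trend too (adjusted p of 0.11 from limma). The number of all genes at least 2-fold higher, 922 as reported, was 1553 with every gene above 0, 575 with a minimum mean of 5 TPM and 586 with quantile normalization, and 698 against 451 were at least 2-fold lower with quantile normalization. Leaving out 1 library gave 5 to 7 higher and 2 lower members. With the replicate number as a block, 6 members were higher and 2 lower (SRXN1 had an adjusted p of 0.059 from limma). In this fit 1 residual degree of freedom is left. Deviations of same-numbered libraries had a correlation of -0.044 across genes. With 2 pairs this cannot show whether same-numbered libraries shared an infection or a batch. Read depth is unknown.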

Other observations

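Within the wider lists, some genes next to the members in metabolism were looked at after their values were seen, and no test was made of them as groups. Several enzymes that supply NADPH or work in the pentose phosphate pathway, whose product thioredoxin reductase, glutathione reductase and NQO1 draw on, were lower in METTL16 KO. TALDO1 was at 288 and 293 TPM in the sgNS libraries against 175 and 179 TPM in METTL16 KO, and TKT at 92.0 and 90.4 TPM against 57.3 and 54.8 TPM. ME1, the cytosolic malic enzyme, was at 66.5 and 67.7 TPM against 42.6 and 40.2 TPM. PGD and IDH1 changed less, with log2 fold changes of -0.11 and -0.28.

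For glutathione, values are given beside those of GCLC and GCLM. SLC7A11, the cystine importer that supplies cysteine for glutathione, was at 55.7 and 57.0 TPM in the sgNS libraries against 31.7 and 31.0 TPM in METTL16 KO. SLC3A2, its partner chain, had a log2 fold change of 0.14 and lost its call under either scaling. GSS, which completes glutathione, had a log2 fold change of -0.093 that was not called, and it was called lower after median-ratio scaling (-0.26) and quantile normalization (-0.23). GSR, which regenerates reduced glutathione, was at 204 and 200.3 TPM against 142 and 139.9 TPM. On the side of heme breakdown, HMOX1 was higher, BLVRA and BLVRB (a flavin and biliverdin reductase, at 224 and 216 TPM against 142 and 153 TPM) were lower, and FTH1, the ferritin heavy chain that stores iron, was at 5486 and 5478 TPM against 8662 and 9116 TPM. FTH1 has many processed pseudogenes, and sharing of reads with them was not tested.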
